A study of Mus musculus with 6 samples.

Results

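The type I interferon response genes are 29 mouse genes, chosen by name from those that cells switch on when they sense interferon alpha or beta. Each was found in the deposited expression table by its symbol or by its Entrez Gene identifier, and each matched 1 probe set of the 25206 in the table. The RNA was total RNA of choroid plexus, the folded tissue of the brain ventricles that makes cerebrospinal fluid, from C57BL/6J mice aged 2 to 3 months (young, n = 3 arrays) or 20 to 22 months (aged, n = 3 arrays). The labels name no treatment and no altered gene, so both groups share the strain and differ in age. Each array held RNA labelled as 1 mouse, and the sex is not given in the sources used here. The study asked which genes differ in expression between young and aged choroid plexus.

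Type I interferons are secreted antiviral cytokines that bind a receptor of the chains Ifnar1 and Ifnar2. The receptor kinases Jak1 and Tyk2 then activate STAT proteins, Stat2 among them, which join Irf9 in a complex that binds a short promoter motif, the interferon-stimulated response element, and drives the response genes. Most of these genes encode proteins that sense foreign nucleic acid, block virus replication or limit the signal. A type I interferon response has been described in the choroid plexus of old mice and people.

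Promoter sequences of 20 of the 29 genes were in a RefSeq table (build GRCm38.p6) that gives 250 bases before and 50 after each gene start. The response element was searched on both strands as GAAANNGAAA, 10 bases in which N is any base, and overlapping matches were counted. At least 1 match lay in the window of 12 of these 20 genes, or 60.0%, against 1079 of 27025 genes in the whole table, or 3.99%. A match is only a description of these letters, and the absence of one in a window says nothing about binding. The 5 stretches shown belong to genes whose values on each array are given later, an IFIT pair that differed on 1 aged array among them. They run 5′ to 3′ on the strand of the gene, end before its start, and carry the matches in capitals, as GAAA pairs or, on the other strand, as TTTC pairs.
Ifit1, chr19:34640765-34640833, plus strand: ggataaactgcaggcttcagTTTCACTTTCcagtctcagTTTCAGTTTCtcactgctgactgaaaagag
Ifit3, chr19:34583353-34583436, plus strand: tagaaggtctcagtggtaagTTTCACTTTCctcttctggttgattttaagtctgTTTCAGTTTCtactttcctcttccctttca
Isg15, chr4:156200855-156200916, minus strand: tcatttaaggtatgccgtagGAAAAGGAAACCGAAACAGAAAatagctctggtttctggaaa
Oas1a, chr5:120907526-120907565, minus strand: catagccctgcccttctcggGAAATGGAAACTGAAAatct
Rsad2, chr12:26456543-26456592, minus strand: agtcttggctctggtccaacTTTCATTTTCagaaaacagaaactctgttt
The matches of Ifit1 began 104 and 85 bases before the start, and those of Ifit3 began 156 and 122 bases before it. Isg15 held 3 overlapping matches that began between 78 and 66 bases before its start, and Oas1a held 2 that began 20 and 14 bases before it. Rsad2 held 1, beginning 120 bases before the start. The windows of Ifi44, Cmpk2, Irf7, Irf9, Ifit2, Oasl1, Oasl2 and Xaf1 held no match.

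Values are log2 expression values, so a difference of 1 is a doubling. Aged choroid plexus had no interferon response gene past the threshold in either direction (limma, Benjamini-Hochberg adjusted p under 0.05 over all probe sets), beside 0.0793% of all probe sets. At an unadjusted p under 0.05, 1 gene was higher in the aged tissue (Zbp1) and 3 were lower (Ifi27l2a, Cmpk2 and Ifi44). Over all probe sets 3.82% were higher and 3.96% lower by the same measure. The aged values of 1 gene all lay above the young ones (Zbp1), and those of 2 all lay below (Ifi27l2a and Cmpk2), beside 6.69% and 6.93% of all probe sets. Of the 29 genes 16 were higher and 13 lower in the aged group, and their median difference was 0.02 (aged minus young), against -0.0018 over all probe sets. In bulk tissue fewer cells of a type and less RNA per cell cannot be told apart. The smallest q-value of the 29 genes in the authors' deposited table was 0.439 in the column over all probe sets (Ifi27l2a). The filtered q column of the authors' deposited table has values for 17 of the 29 genes, and its smallest was 0.394 (Cmpk2). Ifi27l2a and Zbp1 have no value in that column.

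The plot of age differences also gives how closely each gene was measured. The 95% interval of the difference lay within 1 log2 unit either way for 22 of the 29 genes and within 0.5 for 6, against 95.1% and 61.3% of all probe sets. The standard error (SE) ran from 0.11 to 0.50 with a median of 0.19, against a median of 0.14 over all probe sets. A difference of 1 log2 unit in at least 1 direction lay inside the interval of the other 7 genes: Ifi44, Ifi27l2a, Usp18, Ifit1, Oas1a, Rtp4 and Trim30a. For those 7 a doubling or its reverse was within what the arrays left possible.

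**Figure D1:**
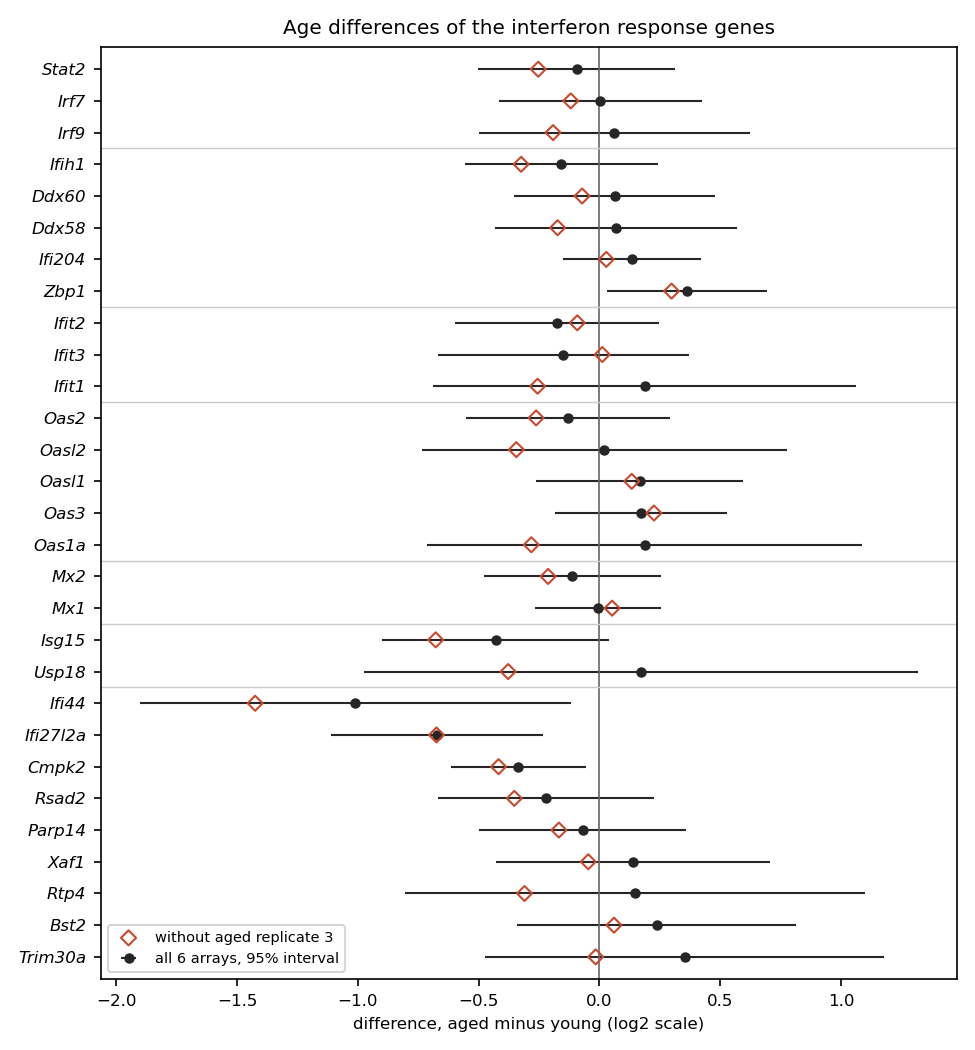
The horizontal axis is the difference between aged and young choroid plexus (log2 scale, aged minus young), with 1 row for each of the 29 genes, grouped by role between grey lines. Black points with bars are differences over all 6 arrays with 95% intervals, and open diamonds leave out aged replicate 3; Ifi44, Ifi27l2a and Cmpk2 lie to the left of 0 and Zbp1 to the right with intervals that leave out 0.

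The transcription factors of the response had group means that lay close together at the 2 ages. Stat2, which carries the receptor signal to the nucleus, stood at 5.40, 5.17 and 5.59 on the young arrays and at 5.03, 5.23 and 5.61 on the aged ones. Irf9, the DNA-binding partner of Stat2, stood at 6.35, 5.77 and 6.05 in young and at 5.72, 6.00 and 6.63 in aged. For both genes the groups overlapped, with the lowest and the highest array both aged. Irf7, which amplifies interferon production, ran from 4.06 to 4.28 in young and from 3.74 to 4.40 in aged. The 3 differences ran from -0.09 for Stat2 to 0.06 for Irf9 (limma adjusted p 0.928 to 0.997).

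Among the sensors of nucleic acid, 4 of 5 were higher and 1 was lower in aged tissue, and none passed the threshold. Zbp1, a sensor of left-handed nucleic acid that can start inflammatory cell death, stood at 3.36, 3.67 and 3.79 on the young arrays and at 3.85, 3.96 and 4.10 on the aged ones. The aged values all lay above the young ones, by a small margin at the nearest pair. The difference was 0.36 (SE 0.14, 95% interval 0.03 to 0.70, limma adjusted p = 0.592), or 1.29-fold.

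The RNA helicase Ifih1, which senses long double-stranded RNA, was nearly level on the young arrays, 6.54 to 6.62, and ran from 6.06 to 6.75 on the aged ones. Ddx58, known as RIG-I, which senses short RNA with a triphosphate end, ran from 6.45 to 6.78 in young and from 6.33 to 7.20 in aged. For both helicases the aged range enclosed the young one. Their differences were -0.16 and 0.07 (limma adjusted p = 0.864 and 0.963). Ddx60, a helicase that assists such sensors, differed by 0.06, and Ifi204, a DNA sensor of the mouse, by 0.13 (limma adjusted p = 0.960 and 0.832). The means of Ddx60 and Ifi204 lay under 3.46, the 95th percentile of the means of 1354 olfactory and vomeronasal receptor probe sets, used as a guide to background. Of the 29 genes 9 lay under that guide: Ddx60, Ifi204, Ifit2, Oasl1, Oas3, Oas1a, Mx1, Mx2 and Isg15. RMA compresses differences in that range, so differences of these genes can be understated.

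The IFIT proteins bind viral RNA and stop its translation, and their genes lie close together on chromosome 19. Ifit1 stood at 4.67, 4.57 and 5.31 on the young arrays and at 4.79, 4.40 and 5.93 on the aged ones. Ifit3 stood at 4.86, 5.08 and 5.64 in young and at 5.23, 5.18 and 4.72 in aged. Aged replicate 3 thus held the highest Ifit1 value of all arrays and the lowest Ifit3 value. Ifit2, which neighbours Ifit3 on the map, ran from 2.84 to 3.37 in young and from 2.85 to 3.27 in aged. The differences were 0.19, -0.15 and -0.17 for Ifit1, Ifit3 and Ifit2 (limma adjusted p 0.854 to 0.934). Ifit3 has a near-identical copy in the mouse, Ifit3b, which was not analysed here, and signal from that copy in the Ifit3 probe set was not tested.

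The oligoadenylate synthetases make a messenger from adenosine that activates an RNA-cutting enzyme, and the Oasl genes encode related proteins. Of these 5 genes 4 were higher and 1 was lower, and none passed. Oas1a stood at 2.33, 2.26 and 3.00 on the young arrays and at 2.14, 2.37 and 3.66 on the aged ones, so the third array of each age was the high one. Oasl2 had the same order, with 4.71 on young replicate 3, 4.97 on aged replicate 3 and no more than 4.0 on the other arrays. The differences were 0.19 for Oas1a and 0.02 for Oasl2, each far smaller than the SD of its aged group (0.82 and 0.63, n = 3).

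Oas3 went another way, with 3.77 on aged replicate 1 and 3.22 to 3.33 on every other array. Oas2 ran from 4.11 to 4.29 in young and from 3.65 to 4.34 in aged, and Oasl1 from 2.94 to 3.67 and from 3.42 to 3.59. Oas3, Oasl1 and Oas2 differed by 0.17, 0.17 and -0.13 (limma adjusted p 0.829 to 0.904). Oas1g, a close copy of Oas1a, stood at 3.73 on aged replicate 3 and at most at 2.32 elsewhere. Exchange of signal between the probe sets of these copies was not tested.

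Mx1 and Mx2 encode GTPases that trap virus particles, and most laboratory mouse strains, C57BL/6 among them, carry a defective Mx1 gene. Mx1 ran from 1.87 to 2.03 in young and from 1.84 to 2.07 in aged, and Mx2 from 2.56 to 3.05 and from 2.59 to 2.91. Both lay in the background range on all arrays, so their differences of -0.01 and -0.11 say little about either gene.

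Isg15, a ubiquitin-like protein that is joined to other proteins during the response, stood at 3.09, 3.16 and 3.08 on the young arrays and at 2.40, 2.47 and 3.18 on the aged ones. The first pair of aged arrays lay below every young array, and aged replicate 3 lay above them. The difference was -0.43 (SE 0.20, 95% interval -0.90 to 0.04, limma adjusted p = 0.678), and without aged replicate 3 it was -0.68. Usp18, the protease that removes Isg15 and damps receptor signalling, stood at 4.88, 4.75 and 5.79 in young and at 4.35, 5.18 and 6.41 in aged. Aged replicate 3 was 4.18-fold above aged replicate 1, the widest gap between these arrays among the 29 genes. The aged range enclosed the young one, and the age difference was 0.17 (SE 0.50, limma adjusted p = 0.960) with an interval from -0.98 to 1.32.

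Of the other antiviral effectors 4 were higher and 5 lower in aged tissue, and the lower ones held the 2 largest differences of all 29 genes, those of Ifi44 and Ifi27l2a. Ifi44, a cytoplasmic protein that restrains virus growth, stood at 4.99, 4.72 and 5.79 on the young arrays and at 3.75, 3.73 and 4.99 on the aged ones. Aged replicates 1 and 2 lay well below the young arrays, while aged replicate 3 lay within them. The difference was -1.01 (SE 0.39, 95% interval -1.90 to -0.12, limma adjusted p = 0.577), or 2.01-fold lower, and -1.43 without aged replicate 3.

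Ifi27l2a, a small mitochondrial membrane protein, stood at 3.92, 3.67 and 4.44 in young and at 3.27, 3.40 and 3.34 in aged. The groups did not overlap, and here aged replicate 3 lay with the other aged arrays. The difference was -0.67 (SE 0.19, 95% interval -1.11 to -0.24, limma adjusted p = 0.439), and over the fits without 1 array it ran from -0.84 to -0.46. The aged mean, 3.34, lay under the background guide.

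Cmpk2, a mitochondrial nucleotide kinase, and Rsad2, or viperin, which makes a chain-terminating nucleotide, are neighbouring genes on chromosome 12. Cmpk2 stood at 5.28, 5.32 and 5.47 in young and at 4.96, 4.92 and 5.19 in aged, without overlap. Rsad2 stood at 4.34, 4.66 and 5.01 in young and at 4.26, 4.37 and 4.71 in aged, with overlap. Both were lower, by a difference of -0.34 for Cmpk2 (SE 0.12) and of -0.22 for Rsad2 (SE 0.19), without passing (limma adjusted p = 0.560 and 0.826). The Rsad2 difference ran from -0.38 to -0.05 over the fits without 1 array.

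The higher effectors varied between arrays by more than they differed with age. Rtp4, a chaperone of receptors that also curbs virus growth, stood at 6.21, 5.50 and 6.53 in young and at 5.56, 5.98 and 7.14 in aged. Trim30a, a mouse protein of the TRIM family that limits inflammatory signals, stood at 4.59, 3.70 and 3.84 in young and at 4.27, 3.79 and 5.14 in aged. Aged replicate 3 was again the highest array for both. Their differences were 0.15 and 0.35 (limma adjusted p = 0.958 and 0.848), and without aged replicate 3 they were -0.31 and -0.02.

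Bst2, or tetherin, which holds budding virus at the cell surface, ran from 8.005 to 8.76 in young and from 8.12 to 8.89 in aged, a difference of 0.24. Xaf1, which promotes cell death, ran from 4.47 to 5.13 and from 4.43 to 5.28, a difference of 0.14. Parp14, an ADP-ribosyl transferase, ran from 4.22 to 4.89 and from 4.30 to 4.66, a difference of -0.07. In all 3 the young and aged ranges overlapped along most of their length (limma adjusted p 0.856 to 0.954).

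**Figure D2:**
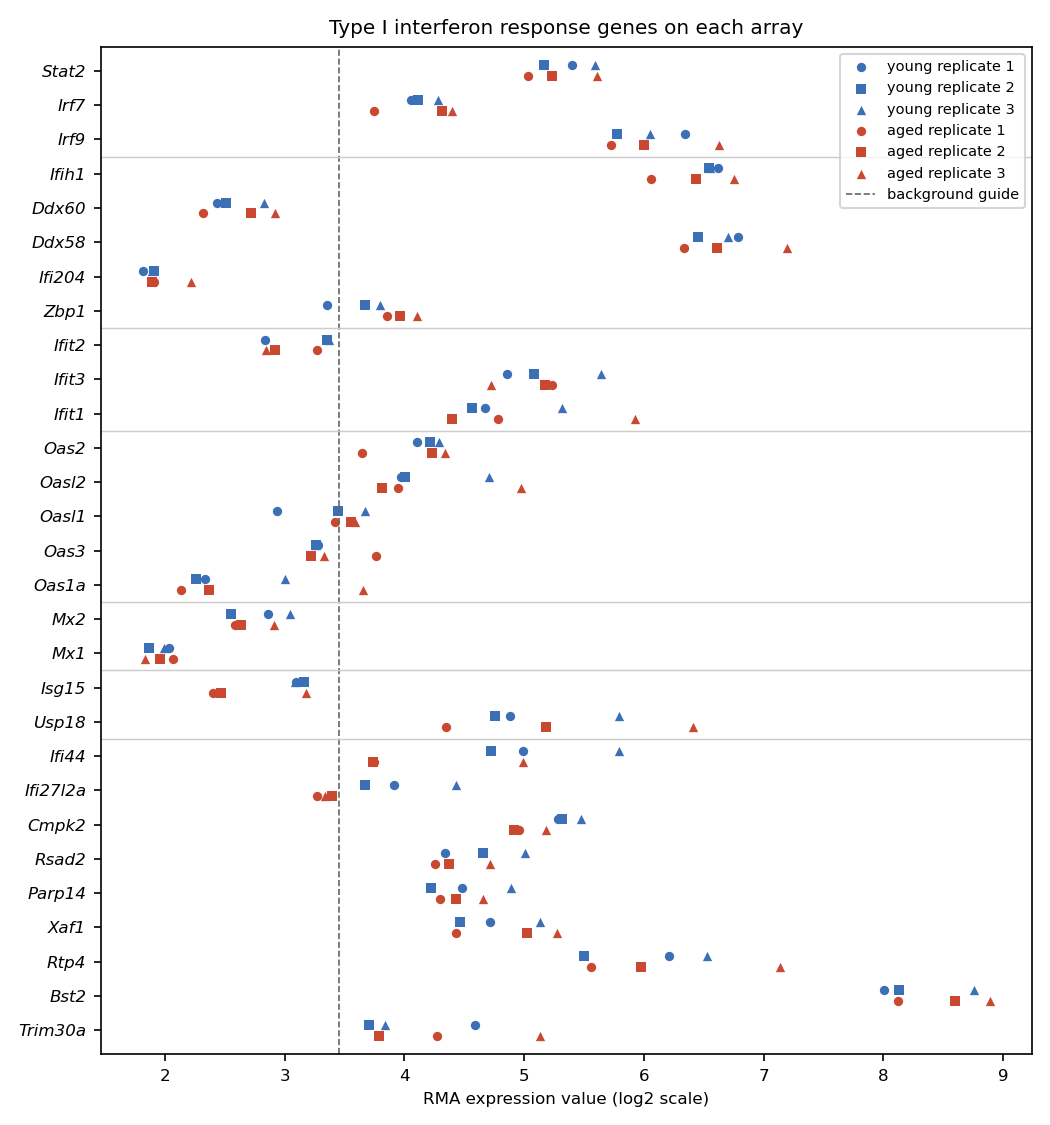
The horizontal axis is the expression value (RMA, log2 scale) with 1 row per gene, grouped by role between grey lines. Blue marks are young arrays, red marks aged arrays, the mark's shape gives the replicate, and the dashed line is the background guide at 3.46; aged replicate 3 (red triangles) lies at the right end of 18 of the 29 rows.

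The clearest feature of these genes was their common order over the arrays. Aged replicate 3 was the highest of all 6 arrays for 18 of the 29 genes, or 62.1%, and young replicate 3 for 9, or 31.0%. Over all probe sets the same arrays were highest for 15.5% and 12.7%. Aged replicate 1 was the lowest array for 13 genes, or 44.8%, against 14.7% of all probe sets. Young replicates 1 and 2 and aged replicate 2 were highest for 0 of the 29 genes. Among the aged arrays alone, aged replicate 3 was the highest for 24 of 29 genes, against 32.2% of all probe sets. Among the young arrays, young replicate 3 was the highest for 21, against 30.0%.

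The same held for the 20 genes with a mean above the background guide, where aged replicate 3 was the highest of all arrays for 14, against 15.4% of the probe sets above it. The exceptions to the aged order were Ifit2, Ifit3, Oas3, Mx1 and Ifi27l2a, of which Ifit2, Oas3 and Mx1 lay under the guide. The 29 genes share their arrays, so they are not separate observations of these mice.

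**Figure D3:**
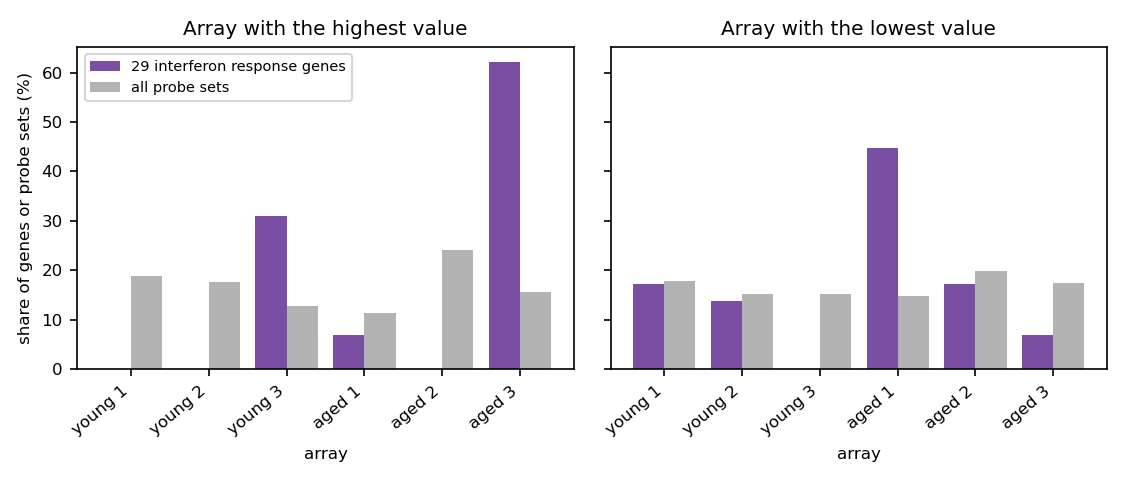
Bars give the share (%) of the 29 interferon response genes (purple) and of all 25206 probe sets (grey) that had their highest value (left) or lowest value (right) on each of the 6 arrays. Aged replicate 3 held the highest value for 62.1% of the genes and aged replicate 1 the lowest for 44.8%.

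In size, the median deviation of the 29 genes from their own means over 6 arrays was 0.28 on aged replicate 3 and 0.27 on young replicate 3. It was -0.30 on aged replicate 1, -0.11 on young replicate 2, -0.075 on young replicate 1 and -0.084 on aged replicate 2. Each age group thus held 1 high array and 2 lower ones. The median SD of the genes was 0.31 in young and 0.34 in aged, against 0.15 in both groups over all probe sets. The aged SD was above the young SD for 20 of the 29 genes, or 69.0%, beside 51.8% of all probe sets.

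**Figure D4:**
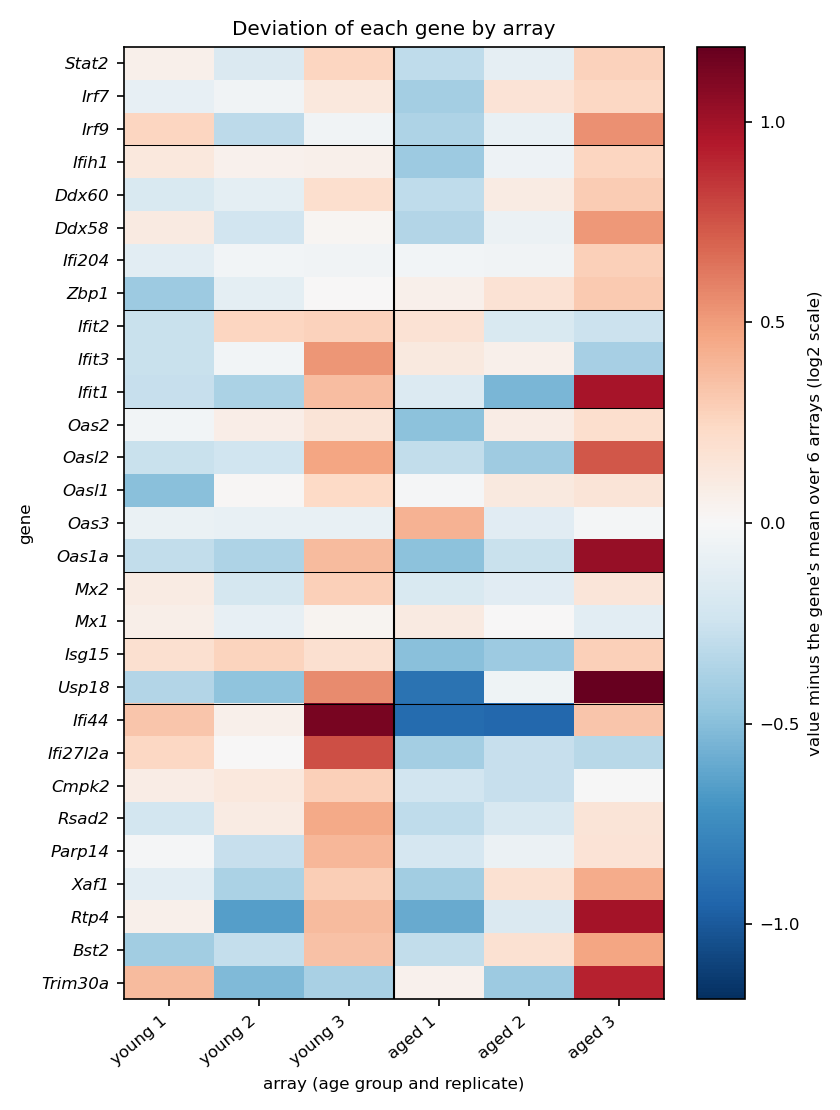
Rows are the 29 genes, grouped by role, columns are the 6 arrays, and colour is the value minus the gene's mean over the 6 arrays (log2 scale, red above and blue below). Young replicate 3 and aged replicate 3 are mostly red and aged replicate 1 mostly blue, with Ifit3, Ifit2 and Ifi27l2a blue on aged replicate 3.

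Single arrays decided the direction of many genes. Without aged replicate 3 the difference changed sign for 13 of the 29 genes, and the median difference was -0.19. Without aged replicate 1 it changed sign for 4, and the median was 0.17. In each fit without 1 array 0 genes passed the threshold (limma), while 0 to 1 were higher and 1 to 4 lower by the unadjusted measure. Ifi44, Ifi27l2a, Cmpk2, Isg15, Rsad2 and Ifit2 stayed lower and Zbp1, Bst2, Oas3 and Ifi204 stayed higher in all 6 of these fits.

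Genes upstream of the response, its regulators and further stimulated genes were measured in the same fit. Of 97 genes in lists of ligands, receptors, inducers, negative regulators and other stimulated genes 91 matched a probe set, and 0 were called by limma over all probe sets. At an unadjusted p under 0.05, 6 of the 91 were higher and 1 was lower, beside 3.82% and 3.96% of all probe sets. Their median difference was 0.04, against -0.0018 over all probe sets. The 6 were Ifnlr1, Sting1, Nlrc5 (with a mean under the background guide), Ly6e, Samd9l and Lgals3bp, and the lower one was Traf3.

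The ligand Ifnb1 lay in the background range, from 1.71 to 1.99 in young and from 1.86 to 2.10 in aged, and so did Ifng. Of 9 ligand genes with a probe set 5 had means under the background guide. The smallest p-values in that list belonged to Ifnb1 (difference 0.18), the lambda interferon Ifnl3 (0.24) and Ifng (0.12), with limma adjusted p 0.782 to 0.833. For the ligands under the guide the arrays set no firm level at either age.

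The receptor chains Ifnar1 and Ifnar2 ran from 7.11 to 7.55 and from 9.06 to 9.23 in young, and from 7.18 to 7.29 and from 8.84 to 9.29 in aged. The kinases Jak1 and Tyk2 differed by 0.06 and -0.04. These 4 genes differed by no more than 0.10 in size (limma adjusted p 0.898 to 0.972). Ifnlr1, the receptor chain for lambda interferons, had the smallest p of that list, with a difference of 0.65 (SE 0.19, limma adjusted p = 0.469). Its aged arrays ran from 4.11 to 4.43 and its young ones from 3.19 to 3.92, without overlap. Ifngr2 differed by 0.23.

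Of the 14 genes that lead to interferon production 11 were higher and 3 lower in aged tissue, beside 49.5% and 50.5% of all probe sets. Sting1, the adaptor of cytosolic DNA sensing, stood at 3.90, 3.71 and 3.83 in young and at 3.99, 4.12 and 4.46 in aged, a difference of 0.38 (SE 0.14, limma adjusted p = 0.577). The ubiquitin ligase Traf3 was lower, at 6.25 to 6.33 in young and 5.97 to 6.09 in aged, a difference of -0.25. Neither gene overlapped between the ages. Irf5 (0.38, with a mean under the background guide), Mavs (0.19) and Irf3 (0.14) differed without passing, and Cgas lay in the background range.

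Among 13 negative regulators 9 were higher and 4 lower. Nlrc5, an activator of MHC class I genes that also restrains sensing, Adar, which edits double-stranded RNA, and Socs1, which blocks the receptor kinases, differed by 0.27, 0.24 and 0.23 (limma adjusted p 0.590 to 0.733). Dhx58, the helicase LGP2, differed by -0.11. The means of Nlrc5 and Dhx58 lay under the background guide.

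Of 47 other stimulated genes with a probe set 27 were higher and 20 lower, with a median difference of 0.03. Ly6e, a surface protein that many cell types carry without interferon, had the smallest p. It stood at 8.93, 8.80 and 9.52 in young and at 9.94, 10.22 and 10.16 in aged, without overlap. The difference was 1.02 (SE 0.19, 95% interval 0.57 to 1.47, limma adjusted p = 0.209). Samd9l and Lgals3bp differed by 0.50 and 0.45 (limma adjusted p = 0.560 and 0.637), while the kinase Eif2ak2, or PKR, differed by 0.02. Aged replicate 3 was the highest of all 6 arrays for 24 of these 47 genes, against 15.5% of all probe sets. The guanylate-binding protein gene Gbp3 went furthest, with 7.59 there and 4.21 to 5.87 on the other arrays (chosen after its values were seen).

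Markers of other cells also differed between the arrays. The mean of 9 B and plasma cell markers was 5.18 on aged replicate 3, 3.59 and 3.62 on the other aged arrays and 3.29 to 3.46 on the young ones. On that array Jchain stood at 6.47 against at most 2.25 elsewhere. The B cell surface gene Cd79a stood at 3.23 there against at most 2.68 elsewhere. Aged replicate 3 was the highest of all 6 arrays for 7 of these 9 markers. The exceptions were Cd79b, at 3.07 there, and Pax5, which had its lowest value there (2.51). Of these 9 markers 6 had means under the background guide. The mean of 15 macrophage markers ran from 4.15 to 4.59 in young and from 4.65 to 5.21 in aged, where 9 of 15 were higher and 2 lower by the unadjusted measure. By that measure 3.82% of all probe sets were higher and 3.96% lower. On aged replicates 1, 2 and 3 the macrophage mean stood at 4.88, 4.65 and 5.21.

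The mean of 8 plasmacytoid dendritic cell markers, the cell type known for releasing interferon alpha, ran from 3.91 to 3.97 in young and from 3.97 to 4.06 in aged. The mean of 10 T cell markers was 3.33 to 3.36 in young and 3.52, 3.59 and 3.85 on aged replicates 1, 2 and 3, with 7 of 10 under the guide. Aged replicate 3 was the highest aged array for 4 of the 10 T cell markers and 11 of the 15 macrophage markers. The same count was 8 of 9 for B and plasma cell markers and 0 of 10 for endothelial ones, against 32.2% of all probe sets. Of all 6 arrays, aged replicate 3 was the highest for 10 of the 15 macrophage and 3 of the 10 T cell markers, against 15.5%. The T cell means of young replicates 1, 2 and 3 were nearly level, at 3.36, 3.34 and 3.33. The mean of 10 endothelial markers ran from 5.32 to 5.75 in young and from 4.88 to 4.97 in aged, and that of 10 fibroblast markers was 6.40 on young replicate 3 and 5.25 to 5.66 elsewhere. The mean of neuron markers was 6.58 on aged replicate 1, 4.32 and 4.87 on aged replicates 2 and 3, and 5.08 to 5.37 in young. That of oligodendrocyte markers ran from 5.02 on aged replicate 2 to 7.29 on young replicate 3. By the unadjusted measure 9 of 10 endothelial and 3 of 10 fibroblast markers were lower. Higher were 2 T cell and 2 B or plasma cell markers, and 2 plasmacytoid markers were higher and 1 lower. That measure had 3.82% of all probe sets higher and 3.96% lower. The mean of 10 neutrophil markers, 9 of them under the guide, ran from 2.59 to 2.77 in young. It stood at 2.46, 2.64 and 2.78 on aged replicates 1, 2 and 3. The means of ependymal (6.22 to 6.44) and red cell markers (2.62 to 3.51) overlapped between the ages. The 12 markers of choroid plexus epithelium had means of 10.90 to 11.23, so the tissue's defining genes were high on every array. The part of these cells in the interferon response values was not tested.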

How the data were processed

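Total RNA of choroid plexus from 3 young and 3 aged mice was hybridised to expression arrays, 1 mouse per array. Precision is set by having 3 arrays a group. The authors deposited log2 values per Brainarray probe set, 1 per Entrez gene, per the file headers. Per the submitters' processing notes they used RMA and limma 3.14.4. The sources used here give neither array model nor genome build. Their p-values and q-values are deposited in the same table. A value table holds the log2 values rounded, with a largest difference of 0.005, and no per-sample column went unused.

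All 25206 probe sets were fitted with limma 3.58.1 in R 4.3.3 (age group, no covariate, no filter), and p-values were adjusted over all of them by Benjamini-Hochberg. Errors are SD over 3 arrays, moderated SE or 95% intervals. The fit was checked on simulated arrays with known differences, placed over all probe sets. Of differences of 0.5, 1 and 2 log2 units the fit called 4.48%, 57.8% and 92.9%. The 95% intervals held the true difference for 95.7%, 93.1% and 94.5% of them. In that simulation most differences of 0.5 thus went uncalled. Current names came from a RefSeq table through Entrez identifiers, which matched 23740 probe sets. The genes, the lists and the tests were chosen with earlier results of these data known. All 29 genes are named, with a fixed set of pathway genes given whatever their values and, per pathway list, the 3 with the smallest p. An item of that set and a marker are not reported here. Other genes were named after their values were seen. The background guide, the 95th percentile of olfactory and vomeronasal receptor means, was set like them. Alternatives were the rounded table, a repeated quantile normalization, centring on array medians, filters on the array median and the guide, a robust variance trend, weights per array, a replicate block and the omission of each array.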

Additional observations from a re-analysis of the deposited data

How the results depend on the processing

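No interferon response gene passed the threshold under any alternative, and the lowest limma adjusted p of any of them was 0.114 (with the replicate number as a block). The median difference of 0.02 lay between 0.0044 and 0.02 under every alternative that kept all arrays. Over the fits without 1 array it ran from -0.19 to 0.17, and that without aged replicate 3 was the lowest. Of the 29 genes 17 were kept by the filter on array medians and 20 by the background guide. The count at an unadjusted p under 0.05 was 1 higher and 3 lower. It was 0 higher with the robust variance trend and with the filter on array medians, which left Zbp1 and Ifi27l2a out of the fit. Without 1 array it was 0 to 1 higher and 1 to 4 lower. Over all probe sets 15 were called higher and 5 lower. The lower count was 8 after a second quantile normalization and after median centring, 12 and 9 with the filters on array medians and on the background guide, 11 with the robust variance trend and 1 with the replicate block. Without 1 array 0 to 27 were called higher and 0 to 25 lower. Same-numbered young and aged arrays correlated at -0.023, 0.15 and -0.05 in their deviations from the group means. With 3 arrays a group these values cannot tell whether same-numbered arrays were handled together. Replicate 3 was the highest array in both groups for 62.1% of the 29 genes, against 8.32% of all probe sets. No gene of the 29 was called with the replicate block or without it, and the lowest adjusted p with the block (limma) was that of Ifi44. The causes of these shifts were not tested.

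The sign of the difference changed under at least 1 alternative for 19 of the 29 genes. Irf7 was at -0.0036 after median centring and -0.072 with array weights, Mx1 at 0.018 with array weights, and Oasl2 at -0.0083 after a second quantile normalization. The other changes of sign came from leaving out 1 array. The difference then ran over these ranges, in log2 units: Ddx58 -0.17 to 0.26, Ddx60 -0.072 to 0.23, Ifih1 -0.32 to 0.020, Ifit1 -0.26 to 0.51 and Ifit3 -0.32 to 0.074. The ranges were, further, Irf7 -0.12 to 0.21, Irf9 -0.19 to 0.26, Mx1 -0.063 to 0.053, Mx2 -0.25 to 0.00092, Oas1a -0.28 to 0.48, Oas2 -0.26 to 0.081, Oasl1 -0.039 to 0.33, Oasl2 -0.34 to 0.26, Parp14 -0.22 to 0.11 and Rtp4 -0.31 to 0.48. Last came Stat2 -0.25 to 0.034, Trim30a -0.016 to 0.66, Usp18 -0.38 to 0.65 and Xaf1 -0.046 to 0.38.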
